A study of Rattus norvegicus with 2 samples.

Results

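The miRNAs described here are miR-320, miR-484 and miR-877, which reach the cytoplasm without being cut by Drosha. They were chosen by name. Rows of the count table named miR-320, miR-484 or miR-877, with or without an arm, were taken, and these were 4 of the 635 rows, namely mmu-miR-320-3p, mmu-miR-484, mmu-miR-877-5p and mmu-miR-877-3p. The prefix of every name is that of the mouse, and the cells were from rats, so it is left out below. The small RNA came from exosomes in the culture medium of primary cells from the hearts of Wistar rats aged 1 to 2 days, in which other cells had been reduced by letting them attach first, and which were grown with the nucleoside analogue BrdU. After serum starvation, cells kept for 48 h with no angiotensin II (Ang II) gave the normal cardiomyocyte-derived exosomes (NC-Exo), and cells kept as long with 1 μmol/L Ang II gave the hypertrophic cardiomyocyte-derived exosomes (HC-Exo). Each was sequenced as 1 library, and the differences below have no replicate check.

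Most miRNAs are cut as hairpins from long nuclear transcripts by Drosha with its partner Dgcr8, exported, and cut again by Dicer into a duplex of a 5p and a 3p strand. The miR-320 and miR-484 hairpins are made in another way. Their transcription starts at the 5′ end of the hairpin itself, which therefore carries an m7G cap, needs no Drosha cut and is exported by Exportin-1. The 5p strand of such a hairpin keeps the cap and is poorly loaded into Argonaute, so that miRNA comes from the 3p strand. miR-877 is a mirtron, a short intron that is released by splicing, folds as a hairpin and is then cut by Dicer. In cardiomyocytes, miR-320 is known for targeting Hsp20 in ischemia and reperfusion, and miR-484 for targeting the mitochondrial fission protein Fis1.

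The rat sequences of miR-484 and miR-877 from RefSeq (build GRCr8) are printed to show where the mature strand lies in each hairpin and, for the mirtron, how the hairpin begins and ends. The mature sequences follow, with the seed, bases 2 to 8, in capitals.
miR-484: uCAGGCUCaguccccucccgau
miR-877 (5′ arm): gUAGAGGAgauggcgcaggg
The hairpins follow, with the annotated mature sequence in capitals. Mir1224, the hairpin of another mirtron, is shown beside Mir877 because of its ends.
Mir484: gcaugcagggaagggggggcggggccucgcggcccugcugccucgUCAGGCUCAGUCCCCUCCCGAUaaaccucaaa
Mir877: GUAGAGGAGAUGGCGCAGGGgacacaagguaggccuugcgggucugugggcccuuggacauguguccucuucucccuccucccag
Mir1224: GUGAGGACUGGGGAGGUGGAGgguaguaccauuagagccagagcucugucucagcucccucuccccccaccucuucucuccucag
Mir484 lies at chr10:1394905-1394981 on the minus strand. Its mature sequence takes bases 46 to 67 of 77, on the 3′ side of the hairpin, and no other mature sequence is given for it. Mir877 lies at chr20:2816284-2816368 on the plus strand, inside the gene Abcf1. Its mature sequence takes bases 1 to 20 of 85, so that it begins where the hairpin begins. The Mir877 hairpin begins with gu and ends with ag, the letters that open and close most introns. Mir1224, at chr11:93811291-93811375 on the minus strand, has the same ends and a mature sequence at bases 1 to 21 of 85. Of the 419 rat hairpins in the RefSeq table, 4 begin with gu and end with ag, and only Mir877 and Mir1224 of these also have a mature sequence at base 1. In the rat gene list, the protein-coding genes nearest to Mir484 are Marf1 and Nde1, and those nearest to Mir320a are Polr3d and Phyhip.

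The seeds of miR-484 and miR-877 differ from each other. The seed of miR-484 is shared by the rat miR-344-5p and miR-344a-5p, and the seed of miR-877 by no other rat mature sequence in the table of sequences. Neither miR-344-5p nor miR-344a-5p matched a row analysed here. Both mature sequences are rich in G and C, with 63.6% for miR-484 and 65.0% for miR-877. The median over the 210 tested miRNAs whose name matched a rat sequence was 47.6%, and 91.0% of them were below miR-484. The 30 tested miRNAs with at least 60% G and C had a median log2 ratio (HC-Exo over NC-Exo) of 0.01, with a range from -2.55 to 1.62, and the median of all 340 tested miRNAs was 0.10.

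Counts were divided by the reads summed over all rows, 102608 in NC-Exo against 133155 in HC-Exo. This gave reads per 1000000 miRNA reads (RPM), and 95% exact (Clopper-Pearson) intervals were computed. These intervals cover the counting error of reads only. PCR copies of the same molecule can be counted as several reads, so the intervals can be too narrow for molecules. A level here is a share of reads, and ligation can favour one sequence over another. Among the listed cell markers, the cardiomyocyte miRNA miR-1a-3p held 161917 RPM in NC-Exo against 174766 in HC-Exo, and all 5 cardiomyocyte markers were above 0 in both libraries. The log2 ratios (HC-Exo over NC-Exo) of these were 0.11 for miR-1a-3p, 0.36 for miR-133a-3p, 1.04 for miR-208a-3p, -0.16 for miR-208b-3p and 1.43 for miR-499-5p. Reads were few for miR-208a-3p (9 in NC-Exo, 24 in HC-Exo) and miR-499-5p (10 and 35). Markers of other cells were present too and did not move in one direction. Of the endothelial markers, miR-126a-5p had a log2 ratio (HC-Exo over NC-Exo) of -0.49 and miR-126a-3p of 0.21. Of the mesenchymal ones, miR-214-3p had -0.49, miR-199a-3p 0.41 and miR-199a-5p 1.26. The smooth muscle markers miR-143-3p and miR-145a-5p had 0.31 and 0.02. Of the white blood cell markers, miR-223-3p had 0.75, miR-142a-5p 0.56 and miR-150-5p 0.03, and miR-142a-3p had 2 reads in each library. Of the red blood cell markers, miR-451a was counted 17 times in NC-Exo and 35 times in HC-Exo, the rows miR-486a-5p and miR-486b-5p both carried 654 and 875 reads, and miR-144-3p matched no row analysed here. The part of these cells in the levels below was not tested. The RNA came from exosomes, so the number of cells of a type, their exosome release and the RNA in each exosome cannot be told apart in such samples.

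miR-484 was the most abundant of the 4 rows. It had 249 reads in NC-Exo, which is 2427 RPM (2135 to 2747), and 371 reads in HC-Exo, which is 2786 RPM (2510 to 3084). It ranked 52 among the 515 miRNAs detected in NC-Exo and 50 among the 569 detected in HC-Exo. Among the 72 rows whose name gives no arm, it was the fourth by reads, after miR-378c, miR-378d and miR-378b.

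miR-877-5p, the strand at the 5′ end of the spliced intron, had 54 reads in NC-Exo, which is 526 RPM (395 to 687), and 49 reads in HC-Exo, which is 368 RPM (272 to 486). miR-320-3p, the product of the other capped hairpin, had 49 reads in NC-Exo, which is 478 RPM (353 to 631), and 38 reads in HC-Exo, which is 285 RPM (202 to 392). miR-877-3p was the lowest of the rows, with 10 reads in NC-Exo, which is 97.5 RPM (46.7 to 179), and 24 reads in HC-Exo, which is 180 RPM (115 to 268). The order of the 4 rows was the same in both libraries. The intervals of miR-877-5p and miR-320-3p overlapped in both, and the difference between these neighbours was not tested. Those of miR-320-3p and miR-877-3p overlapped in HC-Exo but not in NC-Exo, and miR-484 was above the other rows in both libraries. The levels are shown together with those of miRNAs often used as references for circulating RNA.

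**Figure D1:**
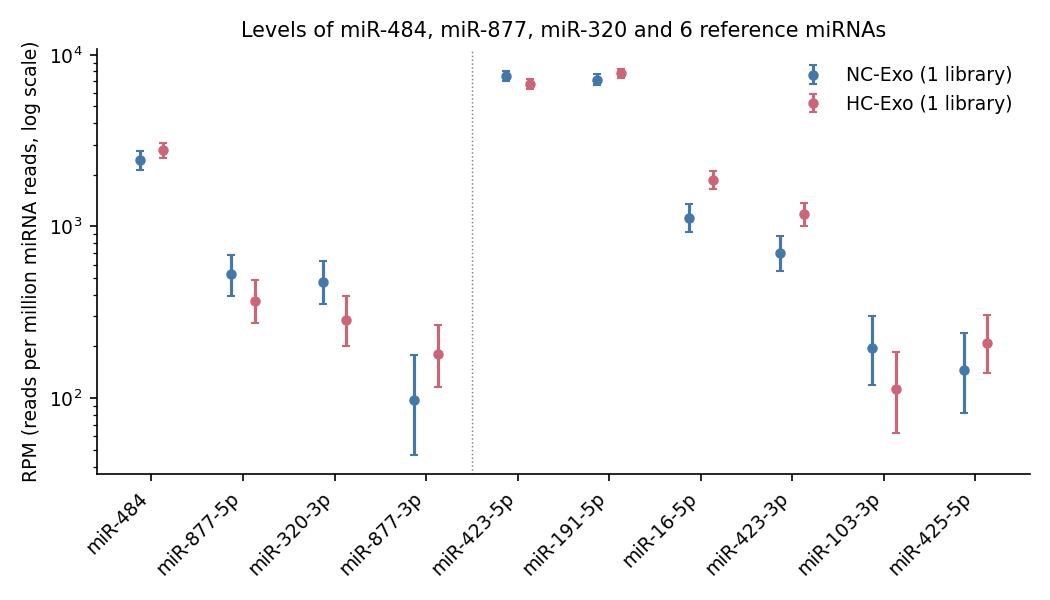
Levels in RPM on a log scale of miR-484, miR-877-5p, miR-320-3p and miR-877-3p (left of the dotted line) and 6 reference miRNAs (right), as points for NC-Exo (blue) and HC-Exo (red), 1 library each, with bars for 95% exact intervals of counting error. miR-484 lay at 2427 and 2786 RPM, between the most abundant references miR-423-5p and miR-191-5p and the others, and the other 3 rows lay at or under 526 RPM.

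Between the libraries, miR-320-3p went from 0.0478% of the reads in NC-Exo to 0.0285% in HC-Exo, and the other capped product, miR-484, from 0.243% to 0.279%. A two-sided exact binomial test asked whether the split of a row's reads between the libraries departed from that of the totals, with Benjamini-Hochberg adjustment over the 340 miRNAs that had 10 or more reads in all. Calls needed an adjusted p under 0.05 and at least a 1-unit log2 difference. This is a comparison of 2 libraries and not of the conditions. All 4 rows had enough reads to be tested, and 0 of the 4 were called, against 16 of the 340 tested (4.71%). With the adjusted p-value alone, 0 of the 4 passed, against 76 of 340 (22.4%), and at an unadjusted p-value under 0.05 only miR-320-3p passed, against 110 of 340 (32.4%). The share past the adjusted threshold differed with depth. Among tested miRNAs with total reads within 1.5 times those of the row, it was 15 of 26 for miR-484 and 11 of 57 for miR-877-5p. It was 10 of 61 for miR-320-3p and 6 of 75 for miR-877-3p.

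For miR-320-3p the log2 ratio, always given as HC-Exo over NC-Exo, was -0.74, with a 95% interval from -1.39 to -0.10 and an adjusted p of 0.0677 in the exact binomial test. With the library scaling by TMM its adjusted p in the exact binomial test was 0.0464 at a log2 ratio of -0.81, so that the limit on the adjusted p alone was crossed but not the limit on the ratio. Among the 61 tested miRNAs with total reads within 1.5 times those of miR-320-3p, 57 had a higher log2 ratio and 4 a lower one, and their median was 0.03.

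For miR-484 the log2 ratio was 0.20 (-0.04 to 0.44, exact binomial test, adjusted p = 0.238). Counting error alone leaves room for a difference of up to 0.44 upward between these libraries, and a spread between cultures was not measured. Of the 26 tested miRNAs of like depth, 11 had a higher and 15 a lower log2 ratio, with a median of 0.13. The value of miR-484 thus lay in the middle of its neighbours in depth.

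For miR-877-5p the log2 ratio was -0.52 (-1.10 to 0.07, exact binomial test, adjusted p = 0.207), and 48 of the 57 miRNAs of like depth had a higher one. For miR-877-3p it was 0.89 (-0.23 to 2.12, exact binomial test, adjusted p = 0.280), and 61 of the 75 miRNAs of like depth had a lower one. The 2 strands of the mirtron thus had log2 ratios of opposite sign, with intervals that both include 0. The reads of both strands together numbered 64 in NC-Exo against 73 in HC-Exo, and their log2 ratio was -0.19.

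**Figure D2:**
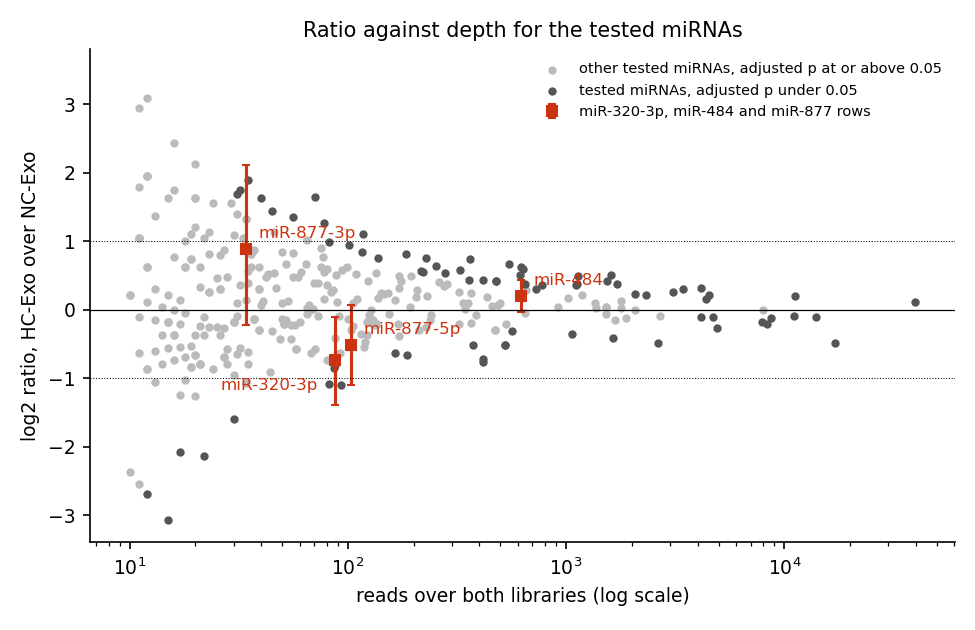
Ratio of HC-Exo to NC-Exo on the log2 scale against the reads over both libraries (log scale) for the 340 tested miRNAs, dark where the adjusted p of the exact binomial test was under 0.05, with the miR-320-3p, miR-484 and miR-877 rows as red squares with 95% intervals of counting error. The interval narrowed with depth, from -0.23 to 2.12 for miR-877-3p with 34 reads to -0.04 to 0.44 for miR-484 with 620 reads, and none of the red squares lay beyond the dotted lines at a log2 ratio of 1 in size.

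The ratio of one miRNA to another within a library does not depend on the scaling, so miR-320-3p and miR-484 were compared with each other and with the 6 reference miRNAs by Fisher's exact test of their reads, 13 pairs in all with adjustment over them. NC-Exo held 0.197 reads of miR-320-3p per read of miR-484, and HC-Exo held 0.102. The log2 ratio of miR-320-3p was lower than that of miR-484 by a difference of -0.94 (95% interval -1.64 to -0.25, Fisher's exact test, adjusted p = 0.0199). The reads of the 2 capped hairpins therefore differed from each other in these libraries by more than the counting error of reads. A spread between cultures was not measured, and how often other pairs of miRNAs differ as much was not counted.

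Against the references, miR-320-3p was lower by -1.48 relative to miR-16-5p (interval -2.21 to -0.75, Fisher's exact test, adjusted p = 0.000445) and by -1.49 relative to miR-423-3p (-2.27 to -0.71, Fisher's exact test, adjusted p = 0.000573). Both of these references were themselves higher in HC-Exo, with log2 ratios of 0.74 for miR-16-5p (exact binomial test, adjusted p = 5.93e-05) and 0.75 for miR-423-3p (exact binomial test, adjusted p = 0.00238). miR-320-3p was also lower relative to miR-191-5p, whose own log2 ratio was 0.13, by -0.87 (-1.54 to -0.22, Fisher's exact test, adjusted p = 0.0199), and relative to miR-425-5p by -1.27 (-2.47 to -0.09, Fisher's exact test, adjusted p = 0.0419). The difference was not past the threshold with miR-423-5p, at -0.59 (-1.26 to 0.06), nor with miR-103-3p, at 0.05 (-1.20 to 1.31). The last of these had 20 and 15 reads and bounds the difference only loosely.

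Of the reference miRNAs, miR-191-5p was the one whose ratio was closest to that of miR-484, with 0.340 reads per read of miR-191-5p in NC-Exo against 0.356 in HC-Exo, a difference of 0.07 on the log2 scale (-0.21 to 0.34, Fisher's exact test, adjusted p = 0.688). It was lower relative to miR-16-5p, by -0.54 (-0.95 to -0.13, Fisher's exact test, adjusted p = 0.0199), and to miR-423-3p, by -0.55 (-1.04 to -0.07, Fisher's exact test, adjusted p = 0.0387). It was higher relative to miR-423-5p, by 0.35 (0.07 to 0.62, Fisher's exact test, adjusted p = 0.0264). With miR-425-5p and miR-103-3p the differences were -0.33 (-1.37 to 0.66) and 0.99 (-0.08 to 2.09), not past the threshold. In all, 8 of the 13 pairs had an adjusted p under 0.05, and these pairs share miRNAs with each other. The share among pairs of other miRNAs was not counted, so this number has no background to be read against.

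The strand bias of the hairpins was described by adding the reads of each arm over all rows of one hairpin name. miR-320 had 87 reads, all on the 3p arm, and no row named miR-320-5p was analysed here. Of 45 other hairpin names with total reads within 1.5 times of this, 15 were also listed with 1 arm and 30 with both. Among them were miR-206, miR-494 and miR-326 with the 3p arm alone. A single listed arm was therefore also seen in hairpins cut by Drosha at this depth. For miR-484 no arm is named, so the counts show no second strand to compare.

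miR-877 was listed with both arms, and 75.2% of its 137 reads were on the 5p arm. Among the 111 hairpin names with at least 100 reads, 89 were listed with both arms, with a median of 95.6% of the reads on the more abundant arm (quartiles 87.7% and 98.7%). Of the 88 others with both arms, 75 had a larger share on the more abundant arm than miR-877 and 13 a smaller one. The 5p arm was the more abundant one in 46 of the 111 names and the 3p arm in 65.

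**Figure D3:**
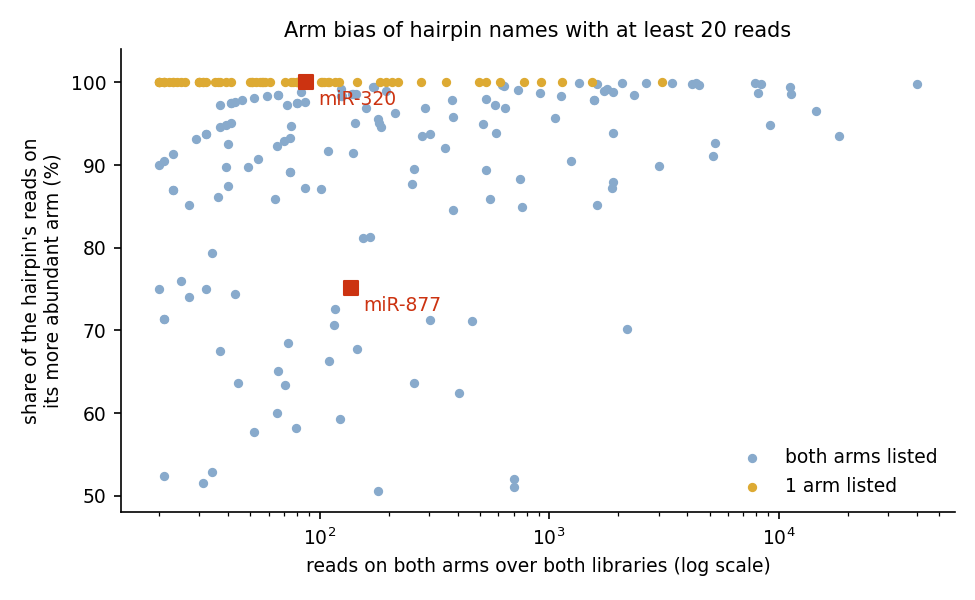
Share of a hairpin's reads on its more abundant arm, in percent, against its reads over both arms and both libraries (log scale), for hairpin names with at least 20 reads, blue where both arms were listed and yellow where 1 was. miR-320 (red square) is at 100% with 87 reads, on a line with many other names, and miR-877 (red square) is at 75.2% with 137 reads, below most names with both arms.

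Of the reads of miR-877, 15.6% were on the 3p arm in NC-Exo (10 of 64 reads, exact interval from 7.76 to 26.9%) and 32.9% in the HC-Exo library (24 of 73, 22.3 to 44.9%). The log2 odds of the 3p arm were higher in HC-Exo by 1.40 (0.11 to 2.77). The same test was run on the 74 hairpin names with at least 10 reads on each arm, a choice made after the counts were seen, and miR-877 had an adjusted p of 0.130 by Fisher's exact test, rank 16 of 74. Of the 74, 5 (6.76%) had an adjusted p under 0.05, namely miR-126a, miR-423, miR-30c, miR-351 and miR-28a, so the shift of miR-877 was not past the threshold.

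**Figure D4:**
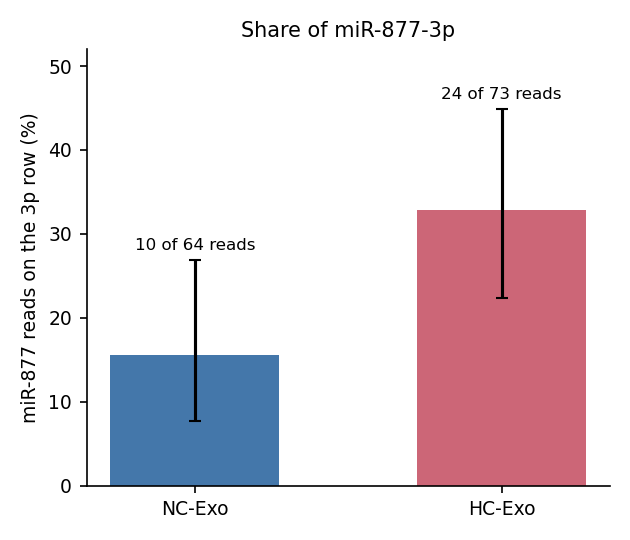
Percent of miR-877 reads counted on the 3p row in NC-Exo and HC-Exo, 1 library each, as bars from 0 with 95% Clopper-Pearson intervals of counting error. The share was 15.6% in NC-Exo against 32.9% in HC-Exo, and the intervals overlap.

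Other miRNAs known to bypass Drosha were also counted. Of 5 further mirtron names, 8 rows were analysed, with 158 reads in NC-Exo against 153 in HC-Exo in all. The most abundant were those of miR-3102. Its row miR-3102-3p.2-3p had 60 and 70 reads, which is 585 and 526 RPM and above miR-320-3p and both miR-877 rows in each library. The row miR-3102-3p had 50 and 42 reads, with -0.63 as log2 ratio (-1.25 to -0.01, exact binomial test, adjusted p = 0.142). The remaining mirtron rows had at most 17 reads in a library. miR-1224-5p, from the hairpin with the same ends as Mir877, was counted 2 times in NC-Exo and 0 times in HC-Exo, both under the floor of 3 reads. Of these rows, 6 had enough reads to be tested, but 3 of them come from the miR-3102 hairpin and 2 from the miR-1981 hairpin and are not independent. All 6 had a log2 ratio below 0, as had 149 of the 340 tested miRNAs (43.8%). Their values went from -0.86 to -0.15 with a median of -0.64, beside the median of 0.10 over all tested miRNAs, and miR-1982-3p, with 3 and 4 reads too low to be tested, was at 0.04. None of the 6 had an adjusted p under 0.05 in the exact binomial test (22.4% of all tested did, a share that differed with depth), the lowest being 0.142. The sign of miR-877-3p was the opposite.

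Among miRNAs cut from small nucleolar RNA, miR-664-5p was counted 8 times in NC-Exo and 0 times in HC-Exo. With HC-Exo set at the floor of 3 reads it was 3.46-fold lower there, a value that leaves out the error of the 8 reads. The exact interval, which counts that error, reached a log2 ratio of -1.15, a smaller difference. Its other strand miR-664-3p had 4 reads and 1 read, both rows had too few reads to be tested, and no row named miR-1839 was analysed here. miR-451a, which is cut by Drosha but matured by Argonaute 2 in place of Dicer, had a log2 ratio near 0.67 (interval -0.21 to 1.59, exact binomial test, adjusted p = 0.288).

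By the distance of log2 RPM over both libraries, the miRNAs nearest to miR-320-3p were miR-28a-5p at 0.05, miR-28c at 0.08, miR-3102-3p at 0.15, miR-1306-5p at 0.17 and miR-98-3p at 0.24. All had log2 ratios below 0, from -0.85 for miR-28c to -0.41 for miR-98-3p, which follows from how they were picked. Those nearest to miR-484 were miR-30c-5p at 0.03, miR-28a-3p at 0.12, miR-99b-5p at 0.14, miR-483-5p at 0.21 and miR-133b-3p at 0.23. miR-30c-5p, with 254 and 371 reads, had the same count as miR-484 in HC-Exo. Nearest to miR-877-5p were miR-221-3p, miR-125a-3p, miR-3102-3p, miR-99b-3p and miR-376c-3p, at distances of 0.16 to 0.27. Nearest to miR-877-3p were miR-490-3p, miR-93-3p, miR-208a-3p, miR-7a-5p and miR-184-3p, at 0.15 to 0.26. This likeness rests on 2 libraries.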

How the data were processed

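Raw counts for each mature miRNA name, as the authors deposited them, were tested. The submitters' processing notes name Bowtie2 and the mouse builds mm9 and GRCm38 with no role. Read trimming, the miRNA reference and the counter are not given in the sources used here. The authors also deposited a normalized signal, the count times 12.1 in NC-Exo and 9.23 in HC-Exo, which was used as an alternative scaling. A further deposited table holds the authors' scaled counts, fold changes, p-values and q-values for this comparison and was not used.

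RPM, exact intervals, exact binomial tests and Fisher's exact tests were computed in Python 3.11.15 with scipy 1.17.1, as the paper's t-test needs replicates. Scalings and edgeR 4.0.16 exact tests with an assumed spread, and DESeq2 1.42.0 size factors, were computed in R 4.3.3. The binomial and Fisher steps were tested on simulated counts with counting error only, which cannot show how they behave with a spread between cultures. Filters were 10 reads over both libraries for the binomial test and 100 for arm shares, and floors 3 reads. Hairpin arms were added over rows of one name, without the number of a gene copy. Of 635 names, 312 matched a rat mature sequence. The row miR-877-5p was assigned by hand to the rat sequence named miR-877, which lies at the 5′ end of its hairpin. Named miRNAs were the rows chosen, fixed lists of other Drosha-independent, reference and marker miRNAs, the 5 nearest by level, and those sharing a seed. Examples of hairpins with 1 arm, of names without an arm and with changed arm use were named after their values were seen. The members and lists were chosen with earlier results of these data known.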

Additional observations from a re-analysis of the deposited data

How the results depend on the processing

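No paired analysis was possible because each condition has a single library, and leaving out replicates could not be done either. None of the 4 rows was called under any alternative run that tested it, and miR-877-3p was not tested with the filter of 50 reads. Each kept the sign of its log2 ratio in these runs, with 1 exception. The sum of both miR-877 arms, chosen after the counts were seen, gave -0.19 in place of 0.89 for miR-877-3p. The log2 ratio of miR-320-3p ranged from -0.87 to -0.70, and its adjusted p from 0.0370 to 1. That p was under 0.05 with TMM (0.0464), upper-quartile scaling (0.0370), totals without the 10 most abundant miRNAs (0.0463), totals of the reference miRNAs (0.0463) and a filter of 50 reads (0.0468), all by the exact binomial test. The log2 ratio of miR-484 ranged from 0.08 to 0.20. Of all tested miRNAs, 16 were called, against 8 with at least 10 reads in each library and 7 with at least 50 over both, where fewer were tested. Assuming a spread between cultures of 0.1, 0.2 or 0.4 (coefficient of variation), the exact test of edgeR called 0 and gave 0 with an adjusted p under 0.05, with 55, 20 and 1 at an unadjusted p under 0.05, none of them a row of miR-320, miR-484 or miR-877. Upper-quartile scaling shifted every log2 ratio by -0.12, and of those with an adjusted p under 0.05 the share higher in HC-Exo was 38.7%, against 61.8% with library totals. Totals without the 10 most abundant miRNAs raised the RPM of miR-320-3p to 1117 (NC-Exo) and 624 (HC-Exo), and the share of hairpin names with 1 arm was 12.5% at a minimum of 500 reads and 29.5% at 20, against 19.8%. Depth limits miR-877-3p most, with 34 reads in all.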
